A study of Mus musculus with 3 samples.

Results

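Mucins are large glycoproteins whose long serine- and threonine-rich stretches carry dense O-linked sugars. Gel-forming mucins are secreted and make the mucus layer over the stomach, gut and airways, whereas membrane-bound mucins stay on the apical surface of epithelial cells and can signal from it. The results cover 8 mucin genes, Muc1, Muc2, Muc4, Muc5ac, Muc5b, Muc6, Muc13 and Muc20, of 27676 genes on the array design. They were taken by gene name, with synonyms, and had 15 probes. Muc5ac is not a gene name on this design. It was read from 2 probes that match it by the array's description or by a RefSeq synonym, so its values rest on that match.

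RNA was compared on 2-colour Agilent arrays of mouse tissue carrying tumours, with 1 array for each of 3 organs. The liver pair was cancer and nontumour liver of an AID Tg mouse, that is, a mouse with a transgene for activation-induced cytidine deaminase. The stomach pair was cancer and nontumour stomach of an AID Tg mouse. The lung pair was cancer of an AID Tg mouse and normal lung of a Wt mouse, so in lung the transgene and the tumour cannot be told apart. Tissue from both members of the liver and stomach pairs carried the transgene. Its promoter, and the ages and number of mice, are not stated in the labels.

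The sources do not settle which dye was the tumour. The labels put it in Cy3, but the authors' deposited table, under its headings for genes up in tumour, holds spots brighter in Cy5. Each ratio below is log2(Cy5/Cy3) with no tumour sign attached, "Cy5-high" means at least 2-fold brighter in Cy5 and "Cy3-high" the reverse. The table's headings make Cy5 likely to be the tumour, and if the dye labels hold instead, all signs reverse. There were no replicates and no dye swap, so no difference has a replicate check and no p-value is given. An error, where given beside a value, is the SD between the probes of a gene. Where a gene or value rests on 1 probe, it is the scanner's own error estimate in log2 units. That estimate belongs to the scanner software's ratio, which at dim probes can differ from the ratio given here. Both kinds of error cover measurement only. In bulk tissue, fewer cells of a type and less RNA per cell cannot be told apart.

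Each array held 43790 spots, and by channel 82.3% to 90.0% of the gene spots were well above background. The median negative control read 119 to 127 in Cy3 and 67.7 to 68.4 in Cy5; raw mucin values close to these carry little signal. The pooled SD between probes of a gene was 0.18 in liver (8143 genes) and 0.26 in stomach (8048 genes). Lung values come from the authors' deposited table, which holds spots past 2-fold and was joined to the design by spot number; other lung values were not analysed here. Where that table lists several spots of a gene outside the 8 mucins, the mean of its listed log2 values is given.

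Markers were set beside the labels. On the liver array, 3 of 5 liver markers were measured, with a median log2 level of 13.2 in Cy3 and 13.1 in Cy5. On the stomach array, all 5 markers of stomach glands (Atp4a, Atp4b, Cblif, Chia1 and Pgc) were Cy3-high, with a median log2 ratio of -4.53 and a summed level of 315410 in Cy3 against 13504 in Cy5. All 5 squamous markers (median -2.11) and 3 of 4 smooth muscle markers (median -2.04) were Cy3-high there too. Over all genes on that array, 1.41% were Cy3-high and 0.873% Cy5-high. Of 4 goblet cell markers measured, 2 were Cy5-high and none Cy3-high. Their summed level was 13503 in Cy3 and 66020 in Cy5, most of the latter from Clca1, whose Cy5 signal was saturated. In lung, 3 of 5 lung markers were in the authors' deposited down list, which covers 12.4% of genes on the design. These mixtures differ between the tissues of a pair, and their part in the mucin values was not tested.

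Of the 8 mucins, Muc4 was the 1 that passed 2-fold on these 2 arrays, and it was Cy5-high in stomach. No mucin passed 2-fold in liver. Over all genes, 0.152% were Cy5-high and 0.0703% Cy3-high in liver, and 0.873% were Cy5-high and 1.41% Cy3-high in stomach. The share of 2-fold genes that were Cy5-high, 68.4% in liver and 38.2% in stomach, rose to 94.0% and 81.2% with ratios centred on the array median in place of loess. The mucins' median log2 ratio was 0.03 in liver and 0.02 in stomach, against 0.01 and 0.0012 over all genes. With median centring the stomach medians were 0.45 for the mucins and 0.06 for all genes. All 8 genes had at least 1 measured probe on both arrays, although 2 of 15 probes in liver and 1 in stomach were not well above background in either channel. No mucin spot is in the authors' deposited liver lists, which hold 1.25% (up) and 1.04% (down) of gene spots. The authors' deposited lung table listed 3 of the 8: Muc4 and Muc13 as up, and Muc5b as down. Up spots there covered 6.84% of genes on the design and down spots 12.4%.

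**Figure D1:**
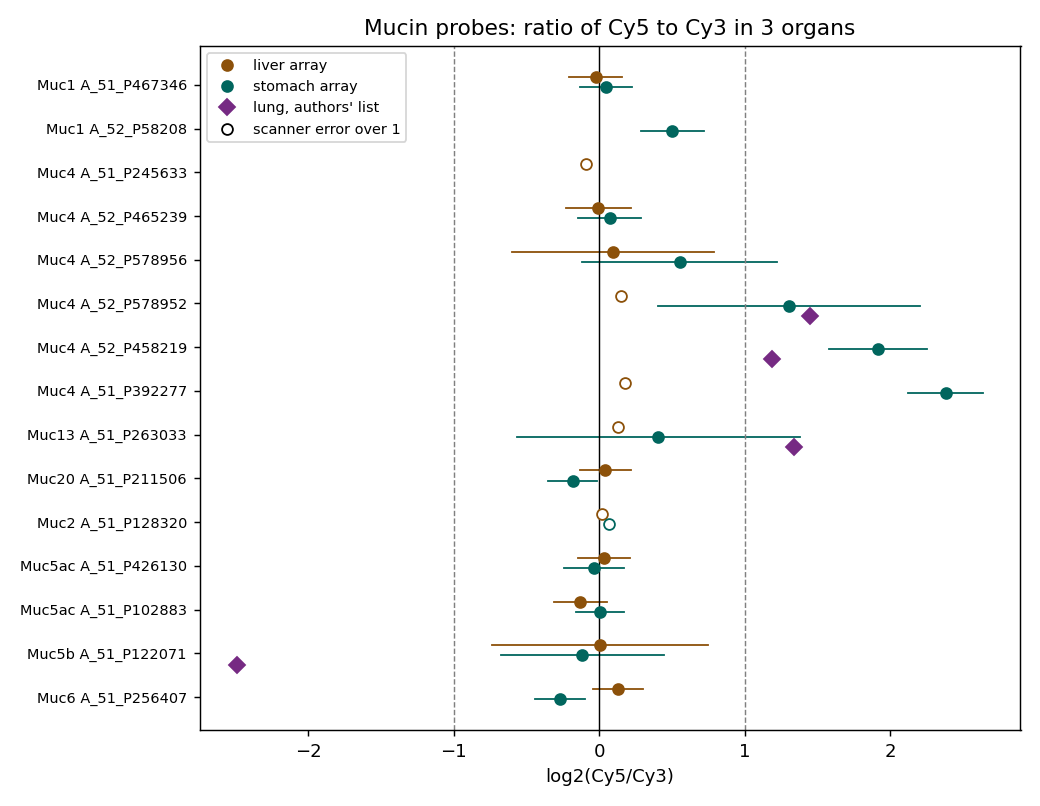
Log2(Cy5/Cy3) of each mucin probe on the liver and stomach arrays (circles) and in the authors' lung table (diamonds). Lines show the scanner error, that of the scanner software's ratio, in log2 units. Open circles have a scanner error over 1, and dashed lines mark 2-fold. The stomach values of 3 Muc4 probes and the lung values of 2 Muc4 probes and Muc13 lie past 2-fold in Cy5, and Muc5b lies past 2-fold in Cy3 in lung.

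Muc4, a membrane-bound mucin that binds the receptor Erbb2, was brighter in Cy5 at some of its probes in the stomach and lung pairs. In liver, the probes past 2-fold in stomach read near the negative controls, so no difference was detectable at them. Along the gene on chromosome 16 lie 5 probes by the array's coordinates, whose build the labels and files do not name, and a 6th has no coordinates. The probes disagreed in stomach, with a gene mean of 1.25 (2.37-fold, SD 0.95 between the 5 mapped probes). In liver the mean was 0.06 (SD 0.11 between 5 probes), with the unmapped probe in and A_52_P458219 out. Over the 4 probes measured on both arrays, the means were 0.10 in liver and 1.08 in stomach.

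In stomach, the first 2 mapped Muc4 probes lay within 2-fold and the 3 nearer the 3′ end lay past it. These 3 of 5 measured probes stand beside 0.956% of all probes Cy5-high in stomach. Among the 3, A_52_P578952 passed the filter through its Cy5 signal alone. The unmapped probe, A_51_P245633, read 125 and 76.6 in stomach. It was not well above background in either channel and is not counted. Over the 4 probes well above background in both channels, the stomach gene mean was 1.23. In liver no Muc4 probe was Cy5-high, beside 0.181% of all probes. The first probe, A_52_P465239 (32429715 to 32429774), read 327 in Cy3 and 518 in Cy5 as raw intensity and had a log2 ratio of 0.07 (scanner error 0.22). The next, A_52_P578956 (32453283 to 32453342), had 0.55 (scanner error 0.67), from raw values of 151 and 195. A_52_P578952 (32453628 to 32455350) read 128 and 231 and was not well above background in Cy3, so its log2 ratio of 1.31 stands for at least 2.47-fold and has no rank among the 3. The scanner software's own log2 ratios at the 5 probes were 0.08, 0.98, 3.03, 2.68 and 2.59 in the same order, with the third probe highest.

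The last 2 mapped probes were well above background in both channels. A_52_P458219 (32456641 to 32456690) read 169 in Cy3 and 692 in Cy5, a log2 ratio of 1.92 (scanner error 0.34), or 3.78-fold. A_51_P392277 (32456834 to 32456889) read 303 and 2560, or 5.21-fold (log2 2.38, scanner error 0.26). The authors' deposited stomach table lists both as up, at 2.68 and 2.59 on the log2 scale; its up list holds 4% of gene spots and its down list, which has no mucin, 3.33%. The probe 27.1 kb upstream was not past 2-fold under any of the alternatives, at 0.06 to 0.50.

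In liver, the raw values at these probes were 344 and 408, 170 and 144, 132 and 83.5, 135 and 75.4, and 137 and 93.3. The last 3 lie near the negative controls, with scanner errors of 3.12, 6.51 and 2.06, and A_52_P458219 was not well above background in either channel. The mapped probes that were measured had log2 ratios between -0.01 and 0.18. The authors' deposited table for lung lists A_52_P578952 at 1.45 (2.72-fold) and A_52_P458219 at 1.19 (2.28-fold), both up. The other 4 Muc4 probes, including A_51_P392277, are not in that lung table. Of the 3 probes past 2-fold in stomach, 2 were thus listed in lung. How far position along the gene or brightness accounts for the spread was not tested.

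**Figure D2:**
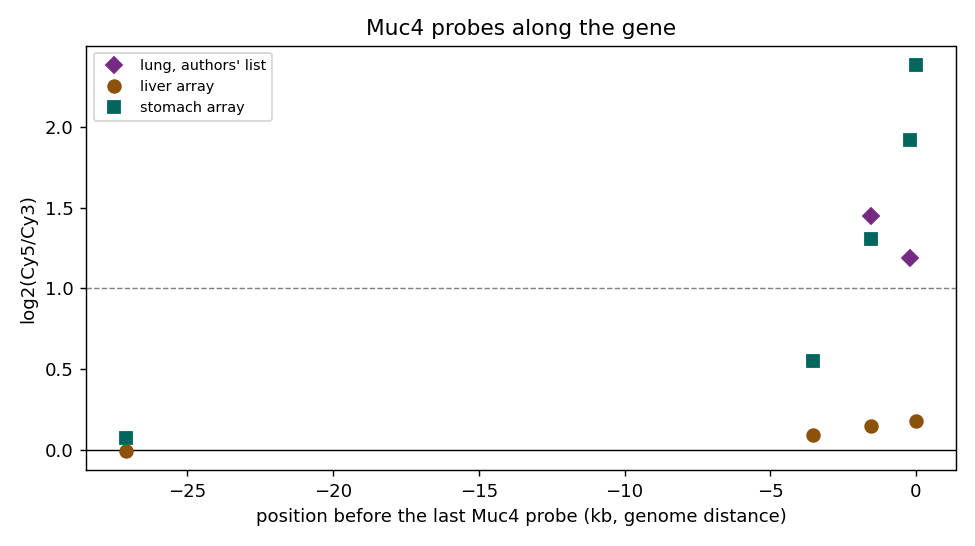
Log2(Cy5/Cy3) of 5 mapped Muc4 probes against their distance before the last probe (kb) in liver, stomach and the authors' lung table. Stomach values run from 0.07 at the first probe to 2.38 at the last, and liver values stay between -0.01 and 0.18. The stomach value 1.54 kb before the last probe is a lower bound.

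Muc4 levels were highest in the Cy5 channel of the stomach array. At A_51_P392277 the log2 level, after scaling the 2 arrays to each other, was 6.10 in liver Cy3, 6.28 in liver Cy5, 8.43 in stomach Cy3 and 10.8 in stomach Cy5. The liver tissues did not differ beyond their scanner error of 2.06, and the stomach tissues, with a scanner error of 0.26, differed from each other beyond it. At A_52_P465239 all 4 tissues lay between 8.40 and 8.51. Its scanner errors of 0.22 hold for the ratio within each array and do not cover differences between the arrays.

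**Figure D3:**
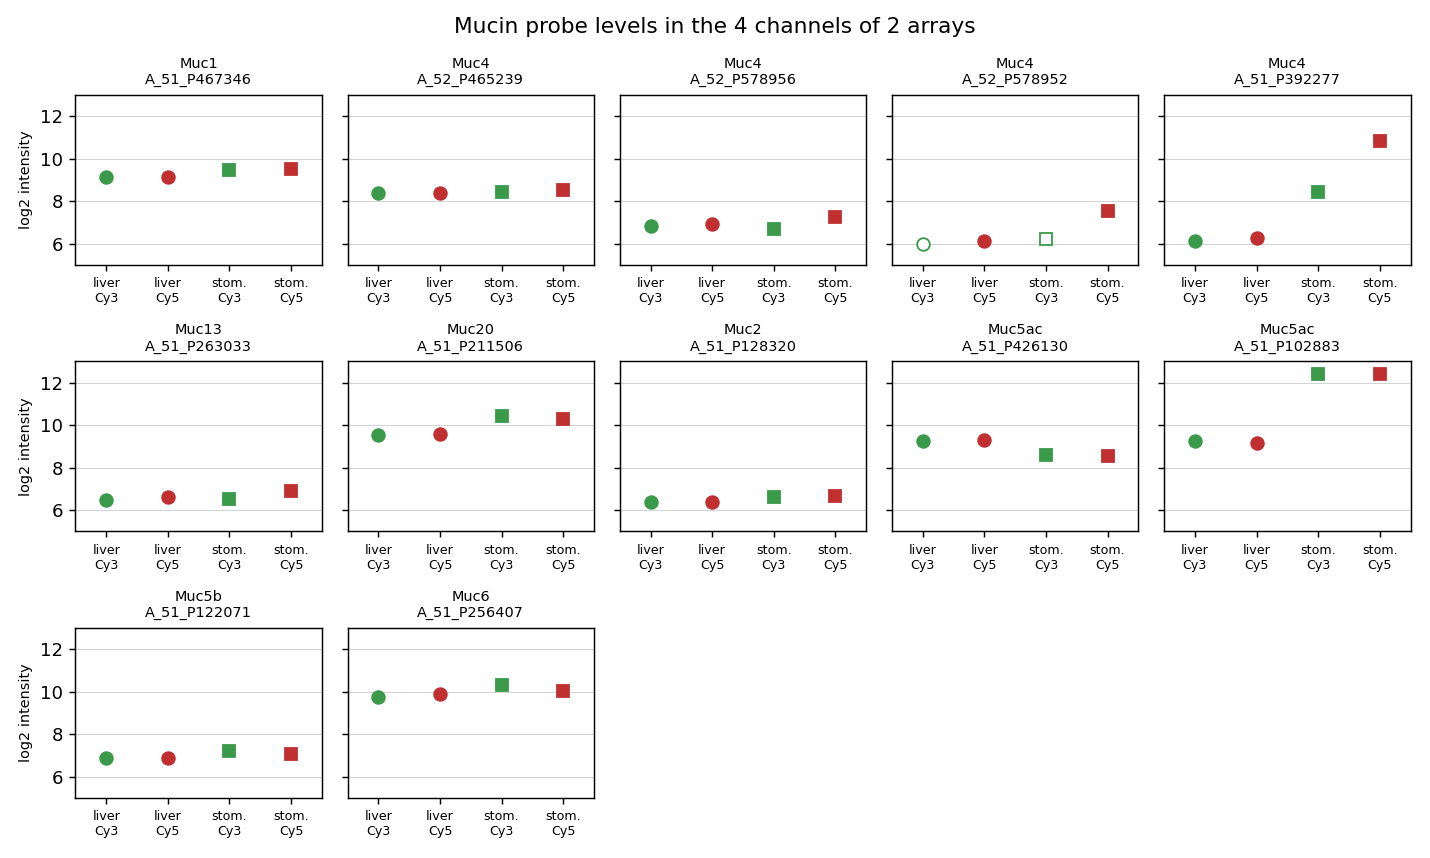
Log2 intensity of the 12 probes measured on both arrays, in Cy3 (green) and Cy5 (red) of liver (circles) and stomach (squares), with open symbols where not well above background. Levels are for comparing tissues within a probe, not probes with each other. Muc4 probe A_51_P392277 spans 6.10 to 10.8 and Muc5ac probe A_51_P102883 rises from about 9 in liver to 12.4 in stomach.

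The 5 genes below had stomach and liver values most like those of Muc4, by distance over 3 values (both ratios and the brightness difference between arrays) among 24758 genes measured on both arrays. Over the probes shared by both arrays, Muc4 stood at 0.10 in liver, 1.08 in stomach and 1.11 for stomach minus liver. These are means of 4 probes that disagreed, without A_52_P458219. Their stomach ratios ran from 0.07 to 2.38 and their brightness differences from 0.08 to 3.43, so the likeness is to a mean. The nearest were a transcript with no gene symbol (distance 0.03), Pcna (0.07), S100b (0.11), Arhgap11a (0.11) and Mcm7 (0.11). Pcna, the sliding clamp of DNA replication, had 0.05, 1.12 and 1.15 for these values, and Mcm7 is a subunit of the replicative helicase. With 3 values, the likeness is a description only.

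Muc4 lies next to Muc20 on chromosome 16 in RefSeq, and the annotated genes overlap on opposite strands. By the array's coordinates the mapped Muc4 probes run forward and the Muc20 probe backward. Whether any probe lies in the shared stretch was not tested. The promoters of Muc4, Muc13 and Muc20 are shown because Muc4 and Muc13 were listed together in lung while Muc20, the neighbour of Muc4, was not. Capitals mark matches, on either strand, to the letters TATAAA, known as the core promoter box, to AGATAA of the Gata factors, to TGANTCA of AP-1, to TTCNNNGAA of the Stat factors or to TGTTTAC of forkhead factors. The letters GGGCGG of Sp and Klf factors and CCGGAA of Ets factors were searched too and matched none of the windows shown, and no matches overlap. They are RefSeq sequences of GRCm38.p6, each 300 bases, from 250 before the start to 50 after: Muc4 at chr16:32735636-32735935 on the plus strand, Muc13 at chr16:33793787-33794086 on the plus strand (the first of 2 starts), and Muc20 at chr16:32797386-32797685 on the minus strand.
Muc4: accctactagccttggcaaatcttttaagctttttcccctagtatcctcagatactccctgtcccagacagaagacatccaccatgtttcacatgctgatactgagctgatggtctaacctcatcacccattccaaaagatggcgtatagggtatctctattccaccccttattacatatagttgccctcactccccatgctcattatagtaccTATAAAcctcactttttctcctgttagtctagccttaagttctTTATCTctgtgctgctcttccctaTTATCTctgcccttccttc
Muc13: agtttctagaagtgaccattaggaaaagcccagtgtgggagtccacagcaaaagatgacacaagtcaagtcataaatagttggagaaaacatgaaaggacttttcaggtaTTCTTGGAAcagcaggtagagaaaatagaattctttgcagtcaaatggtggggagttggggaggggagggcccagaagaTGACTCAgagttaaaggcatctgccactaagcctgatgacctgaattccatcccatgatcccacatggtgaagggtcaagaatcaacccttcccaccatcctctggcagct
Muc20: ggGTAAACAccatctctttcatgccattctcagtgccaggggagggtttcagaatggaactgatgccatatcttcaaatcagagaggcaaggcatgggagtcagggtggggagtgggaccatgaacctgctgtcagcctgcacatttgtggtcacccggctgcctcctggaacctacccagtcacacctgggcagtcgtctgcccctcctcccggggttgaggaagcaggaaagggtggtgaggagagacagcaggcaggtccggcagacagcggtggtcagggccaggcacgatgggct
The Muc4 window held 1 core promoter box and 2 Gata motifs, and no AP-1 or Stat motif. The Muc13 window held 1 AP-1 and 1 Stat motif and no core promoter box, and the Muc20 window held 1 forkhead motif. Over 32851 promoters of the same length, 13.6% held the core promoter box, 11.2% the Gata motif, 7.81% the AP-1 motif, 8.3% the Stat motif, 3.65% the forkhead motif, 35.7% the Sp and Klf motif and 14.9% the Ets motif. A match describes letters in a window and is no binding site, and 6 of the 8 members had a promoter in the table.

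Muc13, a membrane-bound mucin of gut and airway epithelium, gave a signal near background on both arrays. Its probe (chromosome 16, 33493901 to 33493960) read 155 in Cy3 and 119 in Cy5 in liver, and 144 and 153 in stomach. Its log2 ratio was 0.13 (scanner error 1.15) in liver and 0.41 (scanner error 0.97) in stomach, so no difference was detectable at this signal. The scanner software's own log2 ratios were 0.36 in liver and 0.94 in stomach, each within its error. For lung, the authors' deposited table gives it as up at 1.34, or 2.52-fold.

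Muc1, a membrane-bound mucin of most simple epithelia, was close to even in both pairs. Its first probe, A_51_P467346 (chromosome 3, 89357452 to 89357511), read 532 and 689 in liver and 563 and 1050 in stomach, with log2 ratios of -0.02 (scanner error 0.18) and 0.05 (0.18). The second probe, A_52_P58208, was not well above background in liver (117 and 70.1) and gave 0.50 (scanner error 0.22) in stomach (292 and 608). The gene mean in stomach was 0.27 (SD 0.32 between 2 probes), or 0.78 with median centring, and the lung table of the authors does not list Muc1.

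Muc20, a membrane-bound mucin that binds the receptor Met, read 677 and 962 in liver and 967 and 1750 in stomach (chromosome 16, 32460581 to 32460640). Its log2 ratio was 0.04 (scanner error 0.17) in liver and -0.18 (scanner error 0.17) in stomach. The stomach sign turned to 0.51 with median centring, so no direction is given. Its log2 level in stomach exceeded that in liver by 0.91 in Cy3 and 0.69 in Cy5.

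The 4 gel-forming mucins lie in a row on chromosome 7, with Muc6 and Muc2 first and Muc5ac and Muc5b next in RefSeq, between Ap2a2 and Tollip. None passed 2-fold in liver or stomach, and their log2 ratios lay between -0.27 and 0.13. All 4 were flagged well above background in both channels of both arrays. Muc2 and Muc5b were nevertheless dim, with Muc2 nearest the negative controls, and Muc5ac and Muc6 were brighter.

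Muc6, the mucin of deep gastric glands, had a stomach log2 ratio of -0.27 (scanner error 0.17) and a liver ratio of 0.13 (0.17). Its raw values were 778 and 1190 in liver and 890 and 1480 in stomach (probe at 138053787 to 138053846). With median centring the stomach ratio became 0.40, so the side on which Muc6 lay depends on the scaling.

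Muc5ac, the mucin of the stomach's surface cells, was near even between the channels after loess, but its 2 probes disagreed on the organ. At A_51_P102883 (138246168 to 138246227), raw values were 569 in Cy3 and 697 in Cy5 in liver, and 3000 and 7580 in stomach. The log2 ratio was -0.13 (scanner error 0.18) in liver and 0.01 (scanner error 0.16) in stomach, while the level was 3.22 higher in stomach. At A_51_P426130 (138237950 to 138238009) raw values were 561 and 773 in liver and 357 and 541 in stomach, and the level was lower in stomach by 0.67 on the log2 scale. The gene means were -0.05 (SD 0.12 between 2 probes) in liver and -0.02 (SD 0.03) in stomach, and became 0.26 and 0.67 with median centring. Which probe reads Muc5ac was not tested.

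Muc2, the main mucin of intestinal goblet cells, gave values near background, 149 and 102 in liver and 152 and 131 in stomach (138181839 to 138181898). Its scanner error was 1.60 in liver and 1.03 in stomach, so neither the ratio of 0.02 nor that of 0.07 says more than that no difference was detectable. On the same chromosome, 3 further probes are described as similar to Mucin-2 precursor under the name LOC665242, which the table leaves unnamed here. They were kept apart from Muc2 and had log2 ratios of -0.13, 0.03 and 0.02 in liver, and the 2 measured in stomach had -0.07 and -0.05.

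Muc5b, the main gel-forming mucin of normal airways, was dim in liver and stomach, at 178 and 145 and at 188 and 180 (138300110 to 138300169). Its log2 ratio was 0.004 (scanner error 0.74) in liver and -0.12 (scanner error 0.56) in stomach. In lung, the authors' deposited table lists Muc5b as down at -2.49, or 5.62-fold brighter in Cy3. Of the 14 airway and alveolar genes on the design, the same table lists 11 as down and none as up. Of all genes on the design, it lists 12.4% as down and 6.84% as up. The club cell gene Cyp2f2 stands there at -5.15 and the surfactant gene Sftpa1 at -4.29. Their part in the Muc5b value was not tested.

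The other mucins and mucin-like glycoproteins did not pass 2-fold in liver or stomach. Of 12 on the design, 11 were measured on each array, with medians of 0.01 and -0.04. By the scanner software's ratio 2 of them were Cy5-high in stomach, beside 4.32% of all genes, and the median turned to 0.20 with median centring. The largest stomach ratio was that of Muc3, a membrane-bound mucin of the intestine, at 0.72, and the authors' deposited table lists it as up in stomach at 1.15. The authors' deposited table for lung lists 4 of 12 as up, with Muc3 at 2.14 and Parm1 at 1.91, and 4 as down. Those down included Muc16 at -1.76 and the endothelial sialomucins Podxl (-2.92) and Emcn (-1.99). Of all genes on the design, the lung table lists 6.84% as up and 12.4% as down.

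**Figure D4:**
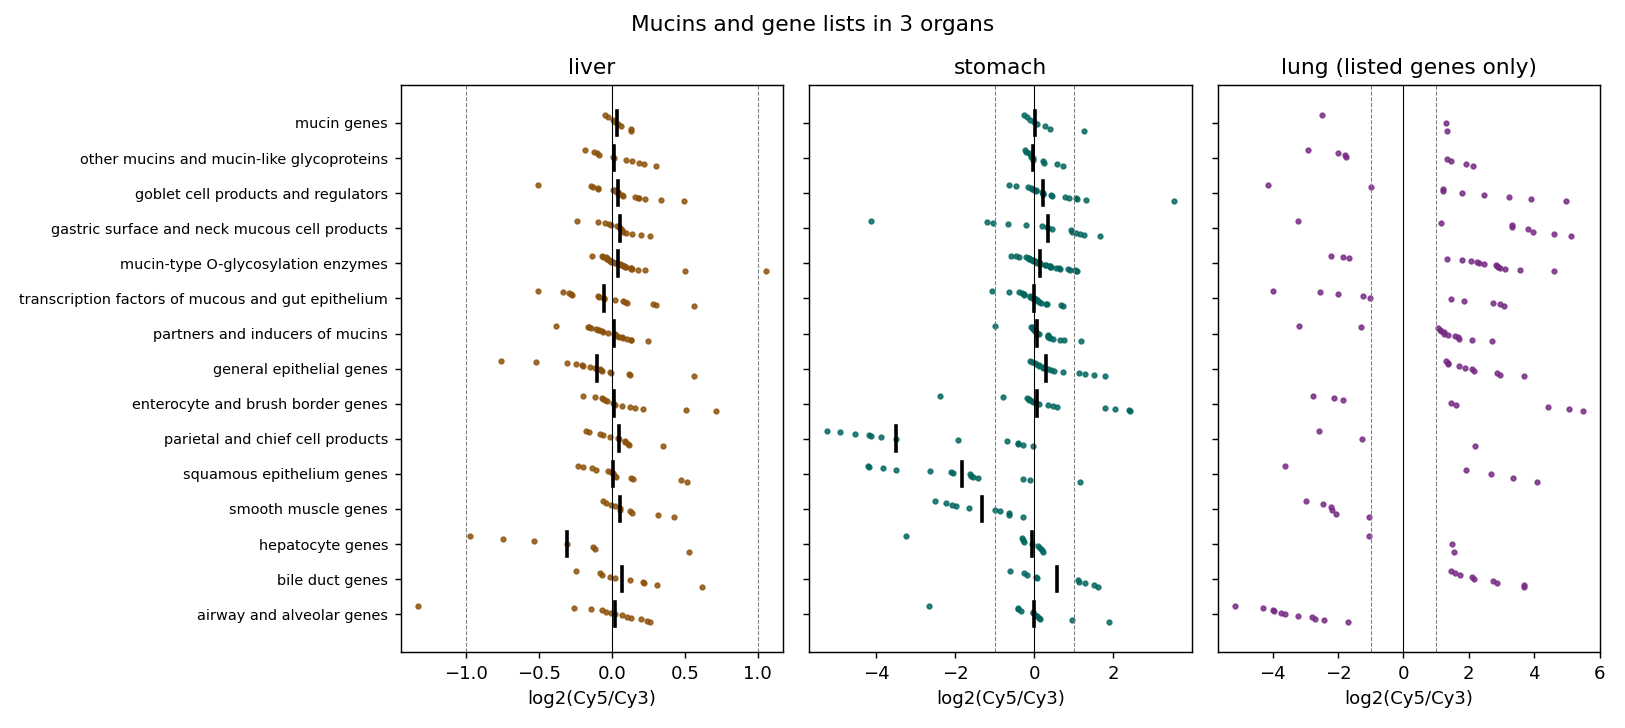
Log2(Cy5/Cy3) of the mucins and of 14 gene lists in liver, stomach and lung, with 1 point per gene and, for liver and stomach, a bar at the median. The lung panel holds only genes in the authors' table. Apart from Muc4 in stomach (1.25), the mucins lie near 0 in liver and stomach, while parietal and chief cell products lie to the Cy3 side in stomach and airway and alveolar genes to the Cy3 side in lung.

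Some products of mucus-secreting cells were Cy5-high in stomach, where Muc2, Muc5ac and Muc6 did not pass 2-fold. The lists share genes, so Galnt12, Gcnt3 and Spdef count in more than 1. Of 20 goblet cell genes measured there, 4 were Cy5-high and none Cy3-high, beside 0.873% and 1.41% of all genes. Clca1, a secreted goblet cell protein, stood at 3.54 (at least 11.6-fold, since its Cy5 signal was saturated). The others were Pla2g10 at 1.30, Galnt12 at 1.09 and Agr2 at 1.06. Agr2 is an endoplasmic reticulum protein needed for making mucins. Galnt12 and Agr2 lay closer to 2-fold than their scanner errors of 0.18. The median of the 20 was 0.21. With median centring it was 0.62 and 7 genes were Cy5-high, beside 4.02% of all genes Cy5-high in stomach under that setting. In liver none of 20 passed 2-fold. Spdef, a goblet cell transcription factor, was the lowest on both arrays, at -0.51 (scanner error 0.30) in liver and -0.65 (scanner error 0.19) in stomach. The stomach value moved beyond its error under 1 alternative. For lung, the authors' deposited table gives 7 of 22 as up, with Tff3 at 4.98 and Agr2 at 3.22, and 2 as down, Agr3 (-4.15) and Gfi1. Of all genes on the design, it lists 6.84% as up and 12.4% as down.

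Gastric surface and neck cell products split. Of 15 measured in stomach, 4 were Cy5-high, namely Gkn3 (1.66), Ctse (1.24), Tff2 (1.17), the trefoil peptide of neck cells, and Gcnt3 (1.06). Pgc (-4.13), which chief cells also make, Psca (-1.20) and Tff1 (-1.05), the trefoil peptide of surface cells, were Cy3-high. Over all genes in stomach, 0.873% were Cy5-high and 1.41% Cy3-high. Gcnt3, Tff2 and Tff1 lay closer to 2-fold than their scanner errors of 0.21, 0.19 and 0.18. Tff2 and Tff1 were saturated in Cy5, so the ratio of each may lie further to the Cy5 side. With median centring 8 were Cy5-high and 1 Cy3-high, beside 4.02% and 0.928% of all genes, and Tff1 changed sign to 0.29. The median was 0.33, or 1.08 with that centring. In lung, the authors' deposited table lists 7 of 15 as up, led by Anxa10 (5.12), Gcnt3 (4.62), Tff2 (3.95), Ctse (3.82) and Vsig1 (3.32), and 1 as down, the water channel Aqp5 (-3.23). It does not list Muc5ac or Muc6, the mucins made by such cells. Of all genes on the design, it lists 6.84% as up and 12.4% as down. In liver none of 15 passed 2-fold.

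Enzymes that build O-linked sugars on mucins were mostly even in liver and stomach. Of 32 measured, 3 were Cy5-high in stomach, beside 0.873% of all genes. These were Galnt12 (1.09), Gcnt3 (1.06) and C1galt1 (1.04), which makes the core 1 sugar. All 3 lay closer to 2-fold than their errors of 0.18, 0.21 and 0.25. The median was 0.14, and 5 were Cy5-high with median centring, beside 4.02% of all genes. In liver Gcnt1 alone of 32 passed 2-fold, at 1.06 (scanner error 0.50), beside 0.152% of all genes Cy5-high. It stood at 0.23 with no filter on dim probes. The authors' deposited table for lung lists 13 of 33 as up, with Gcnt3 at 4.62, B3gnt3 at 3.55 and Galnt4 at 3.10. It lists 3 as down, St6galnac2 (-2.23), St3gal2 (-1.84) and Galnt2 (-1.68). Of all genes on the design, 6.84% are listed as up and 12.4% as down.

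Among transcription factors of mucous and gut epithelium, none of 16 passed 2-fold in liver and 1 of 19 in stomach. That was Bhlha15 at -1.07 (SD 1.39 between 2 probes), beside 1.41% of all genes Cy3-high. By its brightest probe Bhlha15 was at -0.09. With median centring 3 of these genes were Cy5-high and none Cy3-high in stomach, beside 4.02% and 0.928% of all genes. For lung, the authors' deposited table gives 5 of 20 as up, including Elf3 (2.94) and Sox9 (2.74), and 5 as down, including Sox2 (-3.99), Foxa2 (-2.56) and Nkx2-1 (-2.00), a lung lineage factor. Partners and inducers of mucins had 1 of 21 Cy5-high in stomach, beside 0.873% of all genes. That was the galectin Lgals3 at 1.18 (scanner error 0.19), and Egf was lowest at -0.99. With median centring 3 of the 21 were Cy5-high there, beside 4.02% of all genes. In liver none of 21 passed 2-fold, and Erbb2, the partner of Muc4, was dim, with a log2 ratio of 0.25 that ran from 0.03 with median centring to 0.66 by the scanner software's ratio. In lung, the authors' deposited table lists 11 of 21 as up, including Areg (2.72), Egfr (1.71), Erbb3 (1.37) and Erbb2 (1.06). It lists 2 as down, Icam1 (-3.18) and Il1b (-1.30). Beside the lung counts of both lists, 6.84% of all genes on the design are up and 12.4% down.

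Some genes of epithelia in general were Cy5-high in stomach. Of 16 measured in stomach, 4 were Cy5-high, beside 0.873% of all genes. These were Cldn7 (1.77), Krt7 (2.83-fold), Krt19 (1.29) and Epcam (1.12, scanner error 0.19), and the median of the 16 was 0.28. With median centring 8 were Cy5-high, beside 4.02% of all genes, and the median was 1.11. The authors' deposited table for lung lists 10 of 16 as up and none as down, beside 6.84% and 12.4% of genes on the design. In liver none of 16 passed 2-fold, and Cdh1 was lowest at -0.76. By the scanner software's ratio, 1 of them was Cy5-high in liver, beside 2.11% of all genes. Of 16 enterocyte genes, 4 were Cy5-high in stomach, Krt20 (2.41), Slc9a3 (2.39), Vil1 (2.03) and Lgals4 (1.79), and 1 was Cy3-high, Anpep (-2.38). The shares over all genes were 0.873% Cy5-high and 1.41% Cy3-high. The 4 enterocyte markers summed to a level of 11188 in Cy3 and 48080 in Cy5 of the stomach array, and their part in the Muc4 ratio was not tested.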

How the data were processed

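Total RNA (500 ng) was amplified, labelled with Cy3 or Cy5 and read with Agilent Feature Extraction 8.5.1.1, per the labels and the submitters' processing notes. The deposited intensity columns hold spot and local background intensities without normalization, and the deposited log10 ratio is Cy5 over Cy3 after the software's background and dye correction. Scores that flag spots, and a p-value per ratio, were also deposited from that software, as named in the file headers. The authors' deposited table lists spots under up and down headings as log10 ratios. Its liver and stomach values equal the scanner ratios, its largest p-value is 0.01, and its lung spots start at 2-fold (smallest fold 2.00).

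From the scanner files, normexp background correction (offset 50) and within-array loess were run in limma 3.58.1 (R 4.3.3), giving control spots no weight. Outlier spots were dropped, as were probes saturated in both channels or not well above background in either. Spots were averaged by probe, and probes by gene. Levels per channel used brightness scaled between arrays. No test was made, since each organ had 1 array, and a gene was counted at 2-fold. A fold is given as at least its value where the dim channel was not well above background. The ratio steps were tested on simulated data with changes placed at brighter spots only, so recovery of changes at dim spots was not covered.

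Of 41174 probes, 22951 were named by accession, 6659 by symbol, 3096 by synonym, 2 by hand and 8466 kept the file's name. RefSeq GRCm38.p6 served for names, neighbours and promoters. No per-sample column was left unused. Genes named are all 8 mucins, each list's highest and lowest members, up to 6 members at least 2-fold, and the 5 genes nearest to a mucin past 2-fold. Others named were chosen after their values were seen. The members and lists were chosen with earlier results of these data known. Alternatives are given in the closing section.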

Additional observations from a re-analysis of the deposited data

How the results depend on the processing

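The count of mucins at least 2-fold, 0 in liver and 1 in stomach, was equal under all 7 alternatives, and the stomach log2 ratio of Muc4 ran from 1.04 to 2.38. The counts of all genes changed by over 1.5 times. With normexp offset 10, the scanner software's ratio and median centring, respectively, Cy5-high genes in liver numbered 113, 541 and 110 against 39. Cy3-high genes in liver numbered 104, 420 and 7 against 18. In stomach Cy5-high genes numbered 441, 1093 and 1017 against 221, and Cy3-high genes 587, 1049 and 235 against 358. The cause was not tested. Of 705 further comparisons, each of 1 gene, probe or list value under 1 alternative, 79 moved beyond their error. An alternative that left a value untouched, as leaving out saturated channels did at the mucins, counts as unmoved. Of the values past 2-fold, Tff1 in stomach reversed, from -1.05 to 0.29 with median centring. Ratios within 2-fold also changed sign with that centring, among them Muc6 (0.40), Muc20 (0.51) and Muc5ac (0.67) in stomach and Muc1 (0.28) in liver. Dim probes (Muc2, Muc13 and Muc5b) limit what liver and stomach can show. No paired analysis was possible because each organ had 1 array.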
